A study of Homo sapiens with 8 samples.

Results

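The genes described here are the replication-dependent histone genes of the DU145 and PC3 prostate cancer lines. They are the rows whose names begin with HIST1H, HIST2H, HIST3H or HIST4H and lack the letters PS, kept where at least 2 libraries reached 1 CPM (counts scaled to library size). Of 70 such rows, 61 stood in both tables of counts, and 27 passed the CPM minimum, out of 17877 genes that did so and 36779 genes listed. The 27 comprised 2 of 5 rows for the linker histone H1, 9 of 16 for H2A, 10 of 18 for H2B, 3 of 11 for H3 and 3 of 11 for H4. By locus they were 20 of 43 rows of HIST1 on chromosome 6, 6 of 15 rows of HIST2 and 1 of 2 rows of HIST3 on chromosome 1, and none from the single HIST4 row. GENCODE v29 gives 25 of the 27 as protein coding, whereas HIST2H2BA and HIST2H2BC are transcribed pseudogenes that the name rule does not remove.

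RNA was measured in 8 libraries, given by the labels as total RNA after depletion of ribosomal RNA. Both lines are established human lines grown from metastases of prostate cancer. Cells carried a plasmid for the circular RNA circ0003553, whose titles name the gene RCAN3, a plasmid for circ0004592, whose titles name STK3, or a negative control plasmid. Each circRNA and line had 1 library, and each line had 2 control libraries, 1 in the RCAN3 arm and 1 in the STK3 arm. Nothing in the labels says that the cultures were separate, so p-values measure the spread between these libraries, which may be technical. Both circRNA comparisons of a line share its controls.

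Histones package DNA into nucleosomes: H2A, H2B, H3 and H4 form the core and H1 binds the linker between cores. Most of their genes lie in clusters, are transcribed mainly in S phase, and give messages that end in a conserved stem-loop in place of a poly(A) tail. The stem-loop is bound by SLBP, which directs the end processing and stability of the message. Some of these genes also give polyadenylated messages that persist outside S phase, among them HIST1H1C, HIST1H2AC, HIST1H2BD, HIST1H2BK and HIST2H2BE.

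The stem-loop is shown for 5 of the genes below to mark where such a message normally ends. The capitals are the stem-loop, taken from the GENCODE v29 transcripts, 5′ to 3′.
HIST1H2AC: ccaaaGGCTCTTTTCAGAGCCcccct
HIST2H2AA3: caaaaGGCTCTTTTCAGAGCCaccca
HIST2H2BE: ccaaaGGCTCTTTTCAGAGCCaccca
HIST2H4A: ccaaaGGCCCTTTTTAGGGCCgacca
HIST1H3E: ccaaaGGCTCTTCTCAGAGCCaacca
The match was searched with the stem-loop's consensus and was found in 47 of 19669 protein-coding genes of that release, or 0.239%. It stood in an annotated transcript of 19 of the 27 genes and of 15 of the 43 other rows. Annotated transcripts ran on for more than 100 bases past it in 14 of the 27 and in 11 of the 43, with 1128 bases in HIST1H2AC, 1729 in HIST2H2BE and 35 in HIST2H2AA3. A further 5 of the 27 and 24 of the 43 were annotated as their coding part alone, so levels per length cover different parts of the message in different genes.

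Promoters are shown for 4 genes whose RNA rose in PC3 (HIST1H2AC, HIST2H2AA3, HIST2H2BE and HIST2H4A) and for HIST1H2BK, which did not pass the test. Each run is the 200 bases before the start, from RefSeq on GRCh38.p14, read 5′ to 3′ on the gene's strand. Capitals mark the TATA box TATAAA, the box CCAAT and the octamer ATTTGCAT, on either strand.
HIST1H2AC: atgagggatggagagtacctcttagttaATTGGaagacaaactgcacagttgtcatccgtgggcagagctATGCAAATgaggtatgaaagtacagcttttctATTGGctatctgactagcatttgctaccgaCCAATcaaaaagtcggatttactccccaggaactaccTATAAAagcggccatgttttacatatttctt
HIST2H2AA3: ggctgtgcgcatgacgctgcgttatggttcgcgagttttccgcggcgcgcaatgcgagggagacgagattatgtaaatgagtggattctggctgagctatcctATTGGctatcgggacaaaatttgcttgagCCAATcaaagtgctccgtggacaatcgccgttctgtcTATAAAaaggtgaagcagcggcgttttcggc
HIST2H2BE: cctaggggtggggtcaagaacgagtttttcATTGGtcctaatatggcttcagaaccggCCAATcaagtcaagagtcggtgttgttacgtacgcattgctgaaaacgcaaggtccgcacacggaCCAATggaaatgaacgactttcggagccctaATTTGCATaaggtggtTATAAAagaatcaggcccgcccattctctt
HIST2H4A: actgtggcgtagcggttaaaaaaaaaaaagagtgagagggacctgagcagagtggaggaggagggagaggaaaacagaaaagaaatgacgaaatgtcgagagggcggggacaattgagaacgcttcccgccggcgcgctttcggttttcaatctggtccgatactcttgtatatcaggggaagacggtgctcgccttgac
HIST1H2BK: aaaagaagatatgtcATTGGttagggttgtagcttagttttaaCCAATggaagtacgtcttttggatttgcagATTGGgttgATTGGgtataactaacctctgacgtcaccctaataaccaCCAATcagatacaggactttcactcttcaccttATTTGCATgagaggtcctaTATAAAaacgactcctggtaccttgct
These windows are HIST1H2AC at chr6:26123972-26124171 (plus strand), HIST2H2AA3 at chr1:149842751-149842950 (minus strand), HIST2H2BE at chr1:149886683-149886882 (minus strand), HIST2H4A at chr1:149832457-149832656 (plus strand) and HIST1H2BK at chr6:27146859-27147058 (minus strand).
Over the 250 bases before the start, 24 of the 27 genes had an entry, and both strands were searched. TATAAA stood in 16 of 24 (66.7%) against 11.1% of all 27305 promoters, CCAAT in 22 (91.7%) against 33.0%, and ATTTGCAT, the octamer of POU-family factors, in 11 (45.8%) against 1.66%. The octamer stood in 6 of 8 H2B and 5 of 9 H2A promoters, while no H1, H3 or H4 promoter held it. Some H2A and H2B genes lie back to back, such as HIST1H2AC and HIST1H2BC. Their windows overlap, so 1 octamer can count for both and the 24 promoters are not all separate. GAAA followed, after any 2 bases, by a further GAAA, a core of interferon response elements, was found in 1 of 24 (4.17%) against 3.07% of all promoters, and TTCNNNGAA, the core of STAT sites, in 0 against 6.78%. A match describes the letters in the window and says nothing about binding. HIST1H3J, HIST2H2BA and HIST2H2BC had no entry.

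Library totals ran from 33444940 to 49926342 counts. A bound of 3 read pairs (6 counts), used where a gene had no count, came to 0.118 to 0.184 CPM. RCAN3 in the RCAN3 arm went from 20.9 to 37.1 CPM in DU145 and from 33.2 to 44.0 in PC3, and STK3 in the STK3 arm from 26.1 to 34.1 and from 9.12 to 19.3. Gene counts do not separate the circle from the linear message. Epithelial markers summed to between 1016 and 4531 CPM, the leukocyte list to at most 0.616 and the erythroid list to at most 0.112. The luminal and androgen receptor list summed to between 18.0 and 29.4 CPM, with KLK3 at 0 or, in 1 library, at 0.0300.

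The histone genes gave few counts. All 27 together took 0.0207% to 0.0214% of a DU145 library and 0.0139% to 0.0189% of a PC3 library. In DU145, HIST1H1C, HIST1H2BK and HIST1H2AC held 66.5% to 67.4% of these counts. In PC3 the leading genes were HIST1H2AC and HIST3H2A, followed by HIST1H2BK in the controls and HIST1H1C in the circRNA libraries, and these held 53.3% to 58.2%. In the median of the libraries, 13 genes had over 100 counts, while 8 had a lowest count under 10 and 3 had 0 in some library. Rows that were not kept had at most 44 counts, and HIST1H4C, an abundant H4 gene of dividing cells, had 0 in 6 libraries and at most 14. Counts per gene do not separate messages that end at the stem-loop from polyadenylated ones.

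The minimum of 1 CPM in 2 libraries itself chose some of the genes. HIST1H2AD and HIST1H3H were just inside it, with a second highest level of 1.05 CPM before scaling factors, and HIST2H3C (0.881) and HIST1H4K (0.777) were just outside. HIST2H2BA and HIST1H2AD reached 1 CPM only in the PC3 circRNA libraries and HIST1H1E only in those of DU145, and HIST1H2BH needed 1 PC3 circRNA library to pass. A rise of these genes in that line was partly set by the rule, so counts of risers are also given without them, a choice made after seeing the data.

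Several rows could not be told apart from a near copy. Of the 100-base stretches of HIST2H2AA3, 100% also stood in HIST2H2AA4, and 96.8% the other way. HIST2H4A shared 94.9% with HIST2H4B and overlaps HIST2H3C on the opposite strand. HIST1H2AM and HIST1H3J overlap on the same strand and had nearly equal counts in each library. HIST1H2AI shared 57.7% with HIST1H2AJ, and HIST2H2BA 33.6% with other rows. Splits between such rows are uncertain.

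Levels per length (RPKM) put HIST1H2BK, an H2B gene, and HIST1H1C, an H1 gene, first, with medians over the 8 libraries of 70.9 and 70.5. HIST1H2AC (19.9), HIST3H2A (16.8) and HIST2H2AA3 (13.2), all H2A genes, followed, then HIST1H4I (6.33), HIST2H2AA4 (6.02), HIST1H2BD (5.97), HIST1H2BC (4.31) and HIST2H4A (3.11). The remaining 17 had medians of 2.72 or lower. The first 2 cannot be ordered: HIST1H2BK had the higher RPKM in all 4 PC3 libraries (42.6 to 49.4 against 21.4 to 32.1) and HIST1H1C in all 4 of DU145 (109 to 127 against 92.3 to 107). HIST1H4I, HIST2H2AA4 and HIST1H2BD had overlapping ranges. Both leading rows are annotated as the coding part alone.

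**Figure D1:**
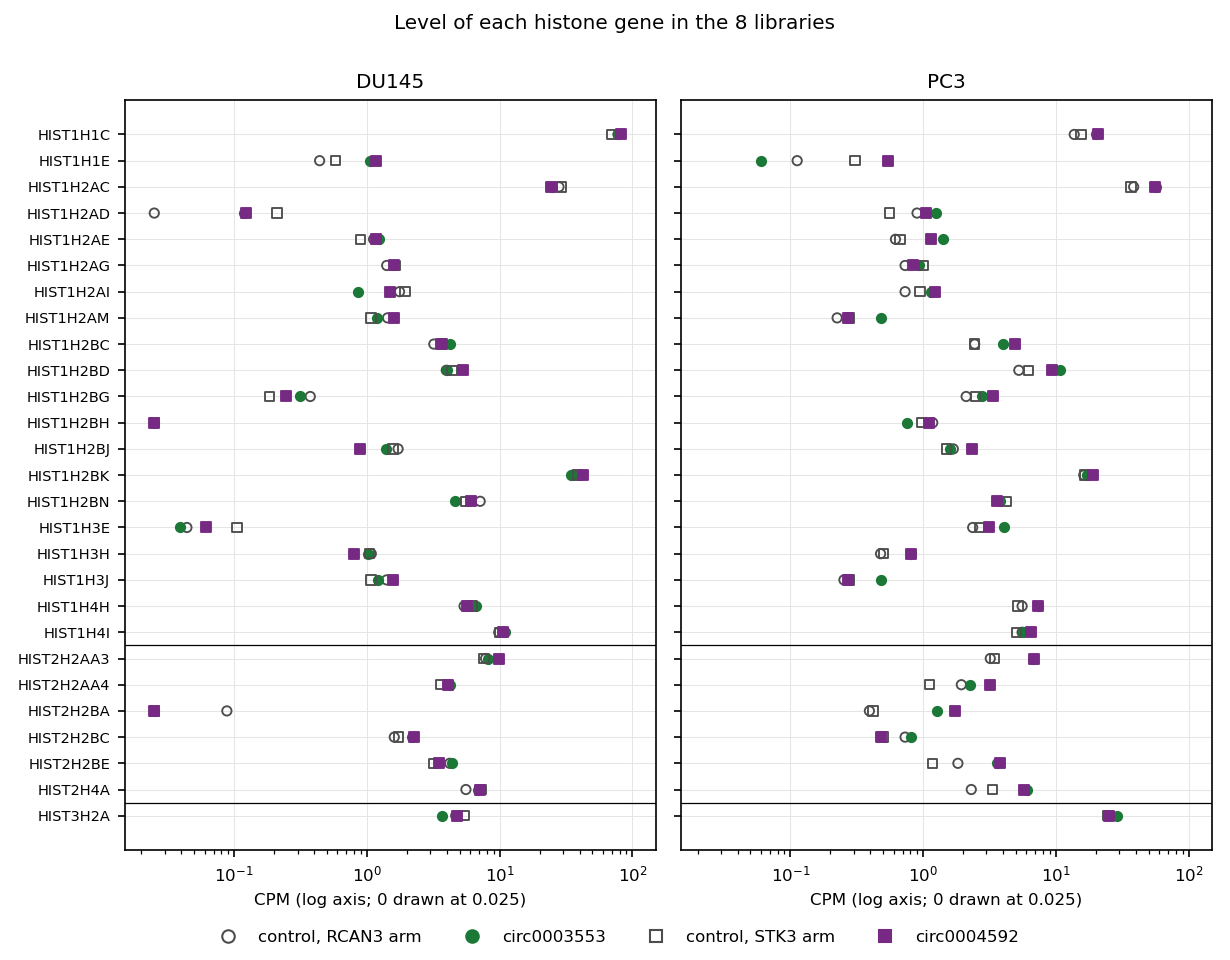
Level of each of the 27 genes in CPM (x axis, log scale, with 0 drawn at 0.025) in the 4 libraries of each line. Open symbols are controls, filled symbols circRNA libraries, circles the RCAN3 arm and squares the STK3 arm, and horizontal lines part HIST1, HIST2 and HIST3. In PC3 both filled symbols of HIST1H2AC, HIST2H2AA3 and HIST2H4A lie to the right of both open ones. Those of HIST2H2AA3 and HIST1H1C do so in DU145 as well.

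Levels of single histone genes differed between the lines with control plasmid. In the controls, 8 genes were higher and 16 lower in PC3, while 82.6% of all tested genes passed this comparison (41.6% higher, 41.1% lower), so the 24 calls are near the background. HIST1H1C had 77.8 and 69.9 CPM in the DU145 controls and 13.7 and 15.4 in those of PC3, a log2 difference (PC3 minus DU145) of -2.34 ± 0.07 (SE, edgeR adjusted p = 4.5e-19). HIST1H2BK had 35.7 and 38.6 against 16.2 and 16.4 CPM. Both genes were lower in each PC3 control than in each DU145 control. HIST3H2A, from the small HIST3 cluster, went the other way, with 4.67 and 5.40 CPM in DU145 and 26.0 and 24.3 in PC3 (2.33 ± 0.10, adjusted p = 3.5e-16). HIST1H3E had 0.0440 and 0.105 CPM in DU145 and 2.36 and 2.65 in PC3. HIST1H2BH had 0 counts in every DU145 library and 42 and 35 in the PC3 controls, at least 7.45-fold higher against a floor of 6 counts per library. The CPM minimum favoured such calls in both directions. HIST1H3E, HIST1H2BH, HIST1H2BG, HIST1H2AD and HIST2H2BA reached 1 CPM in PC3 alone and are 5 of the 8 higher calls, and HIST1H1E, HIST1H2AM, HIST1H3J, HIST1H3H and HIST2H2BC reached it in DU145 alone and are 5 of the 16 lower calls. Among the 17 genes that reached it in both lines, 3 were higher and 11 lower in PC3. SLBP, the stem-loop binder, had 173 to 180 CPM in DU145 and 51.5 to 60.7 in PC3, and all 25 S phase genes were lower in the PC3 controls (median log2 difference -1.44).

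With either circRNA, the summed RNA of the 27 genes was higher in PC3. The summed level of the 27 genes went from 138.9 CPM in the control to 191.2 with circ0003553 (1.38-fold) and from 138.1 to 189.9 with circ0004592 (1.38-fold). Over the 24 genes that pass the CPM minimum without the PC3 circRNA libraries, it went from 136 to 188 and from 136 to 186 CPM. The summed CPM of each class was higher in both arms. H2A went from 72.9 to 100.03 and from 69.1 to 95.2 CPM, and H2B from 35.6 to 46.5 and from 36.2 to 49.7. These sums include HIST1H2AD, HIST2H2BA and HIST1H2BH, which passed the CPM minimum only with PC3 circRNA libraries. H4 went from 13.4 to 19.1 and from 13.6 to 19.6. H1 went from 13.9 to 20.3 and from 15.7 to 21.2, and H3 from 3.09 to 5.36 and from 3.43 to 4.24. The H1 sum was almost all HIST1H1C. The other H1 gene, HIST1H1E, had 4 and 11 counts in the PC3 controls and 2 and 18 with the circRNAs. No H3 gene passed the tests below, and HIST1H3J had 9 and 10 counts in the controls and 16 and 9 with the circRNAs. The HIST2 genes together went from 10.4 to 20.8 and from 9.98 to 21.8 CPM, beside 102 to 142 and 104 to 143 for HIST1, and without HIST2H2BA from 10.01 to 19.5 and from 9.56 to 20.1. In DU145 the sums were 210.0 and 209.1 CPM in the RCAN3 arm and 206.7 and 222.0 in the STK3 arm. These sums carry no test. They rest on the few well-counted genes and leave out the rows not kept, so they do not stand for all histone message.

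**Figure D2:**
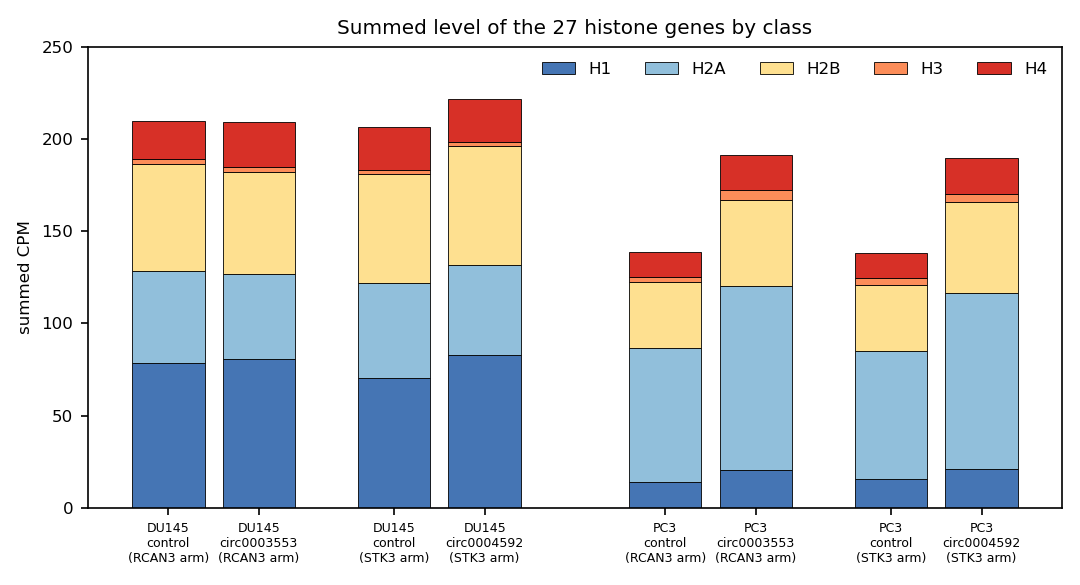
Summed CPM of the 27 genes (y axis) in each of the 8 libraries, 1 bar per library, stacked by histone class. The PC3 bars with circRNA stand at 191.2 and 189.9 against 138.9 and 138.1 in their controls, and the 4 DU145 bars lie between 206.7 and 222.0.

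In the fit that pairs each circRNA library with the control of its own arm, 9 of the 27 genes rose in PC3 and none fell, where 9.54% of all tested genes rose, 9.67% fell and 19.2% passed in either direction. The median log2 change was 0.51 beside -0.03 over all tested genes. Estimates were above 0 for 25 of 27 genes, beside 8038 of all 17877. The 25 include HIST2H2BA and HIST1H2AD, which reached 1 CPM only in the PC3 circRNA libraries. Those below 0 were HIST1H2BN and HIST1H2BH. One of the 9 is HIST2H2BA, which passed the CPM minimum through these libraries. Of the 24 genes that pass the minimum without the PC3 circRNA libraries 8 rose, with a median of 0.50: 4 of 5 in HIST2, 4 of 18 in HIST1 and not HIST3H2A. By class these were 1 of 2 H1, 3 of 8 H2A, 3 of 8 H2B, 0 of 3 H3 and 1 of 3 H4 genes. The 4 from HIST2 include the near copies HIST2H2AA3 and HIST2H2AA4, whose counts may not be separate. The pairs of this fit are the 2 circRNAs, and it has 2 residual degrees of freedom. Without either library of the PC3 STK3 arm 4 genes passed (HIST1H2AC, HIST1H2BD, HIST2H2AA3 and HIST2H4A), and without either of the RCAN3 arm 6 did. Far fewer of all tested genes passed in these reduced fits too, so the drop is not particular to the histone genes. HIST1H2AC and HIST2H2AA3 alone passed under all 13 alternatives. DESeq2 called 6 of the 27 in the paired PC3 fit, where it called 12.1% of all genes.

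HIST2H2BE, an H2B gene at chr1:149884459-149886652 (hg38), had 1.83 and 1.17 CPM in the PC3 controls of the RCAN3 and STK3 arms, 3.63 with circ0003553 and 3.81 with circ0004592. Both circRNA libraries lay above both controls. The paired log2 change was 1.32 ± 0.24 (SE, edgeR adjusted p = 0.000494). In DU145 the controls had 4.20 and 3.17 CPM and the circRNA libraries 4.39 and 3.47, and the groups overlapped.

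HIST2H2AA3, an H2A gene at chr1:149842188-149842736, had 3.20 and 3.43 CPM in the PC3 controls and 6.72 and 6.88 with the circRNAs in the same order (1.03 ± 0.17, edgeR adjusted p = 0.000173). In DU145 HIST2H2AA3 had 7.84 and 7.62 CPM in the controls and 8.19 and 9.92 with the circRNAs. Its circRNA libraries there also lay above both controls, though the change did not pass (0.22 ± 0.15, edgeR adjusted p = 0.628). The copy HIST2H2AA4 had 1.94 and 1.12 CPM in the PC3 controls and 2.27 and 3.18 with the circRNAs (0.84 ± 0.28, adjusted p = 0.0402). The rise of the copy was thus small in the RCAN3 arm, and its call was lost without either STK3 library. HIST2H4A, an H4 gene at chr1:149832659-149839767, had 2.30 and 3.35 CPM in the PC3 controls and 6.05 and 5.74 with the circRNAs (1.07 ± 0.19, adjusted p = 0.000542). In DU145 it had 5.57 and 7.23 CPM in the controls and 6.86 and 7.12 with the circRNAs, with overlapping groups. The pseudogene HIST2H2BA had 14 and 15 counts in the PC3 controls and 42 and 58 with the circRNAs, and at most 4 in DU145. The remaining HIST2 gene, HIST2H2BC, had 0.731 and 0.502 CPM in the PC3 controls and 0.817 and 0.481 with the circRNAs, with overlapping groups.

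HIST1H2AC, an H2A gene at chr6:26124145-26139116, held the most counts of the 27 genes in each PC3 library. It had 38.5 and 36.8 CPM in the controls and 57.2 and 55.5 with the circRNAs (0.58 ± 0.09, edgeR adjusted p = 0.000184). In DU145 it had 28.0 and 29.3 CPM in the controls and 24.8 and 24.3 with the circRNAs, each lower than both controls (-0.22 ± 0.10, adjusted p = 0.405). HIST1H2BC, the H2B gene that faces away from HIST1H2AC, had 2.45 and 2.43 CPM in the PC3 controls and 4.02 and 4.93 with the circRNAs (0.87 ± 0.21, adjusted p = 0.00638). For both neighbours the PC3 circRNA libraries lay above both controls. That also held for genes that did not pass, among them HIST1H2BK, HIST1H4I and HIST1H4H, so it does not mark the called genes. Its share over all genes was not worked out.

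HIST1H1C, an H1 gene at chr6:26055787-26056428, had 13.7 and 15.4 CPM in the PC3 controls and 20.2 and 20.7 with the circRNAs (0.49 ± 0.11, edgeR adjusted p = 0.00252). This call was lost when any 1 of the 4 PC3 libraries was left out (edgeR adjusted p = 0.0709 to 0.251). In DU145 HIST1H1C had 77.8 and 69.9 CPM in the controls and 79.9 and 81.7 with the circRNAs. These circRNA libraries also lay above both controls, though the change did not pass (0.13 ± 0.09, edgeR adjusted p = 0.652). HIST1H2BD, an H2B gene, had 5.26 and 6.19 CPM in the PC3 controls and 10.7 and 9.40 with the circRNAs (0.81 ± 0.16, adjusted p = 0.00142). With HIST1H1C, HIST1H2AC and HIST2H2BE it makes 4 risers in PC3 among the 5 genes listed for known polyadenylated messages. The fifth, HIST1H2BK, at chr6:27146418-27146798, had 16.2 and 16.4 CPM in the PC3 controls and 17.2 and 18.9 with the circRNAs (0.15 ± 0.11, adjusted p = 0.390). Its own-arm folds were 1.06 (95% interval 0.898 to 1.25) and 1.16 (0.985 to 1.36), exact Clopper-Pearson limits on read pairs that cover counting error only.

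Other well-counted genes did not pass in PC3. HIST3H2A had 26.0 and 24.3 CPM in the controls and 28.6 and 25.0 with the circRNAs (0.09 ± 0.11, edgeR adjusted p = 0.632). The H4 gene HIST1H4I had 5.56 and 5.05 CPM and then 5.66 and 6.52 (adjusted p = 0.423), and the H2B gene HIST1H2BN 3.74 and 4.21 and then 3.78 and 3.60 (adjusted p = 0.783). The H4 gene HIST1H4H was close to the threshold, at 5.56 and 5.19 CPM and then 7.38 and 7.33 (0.45 ± 0.16, adjusted p = 0.0622), as was the H2A gene HIST1H2AE at 0.618 and 0.669 and then 1.42 and 1.14 (adjusted p = 0.0598). A miss of the threshold does not show that these were unchanged. None of the H3 genes passed: HIST1H3E, the best counted of them in PC3, had 2.36 and 2.65 CPM in the controls and 4.05 and 3.15 with the circRNAs.

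**Figure D3:**
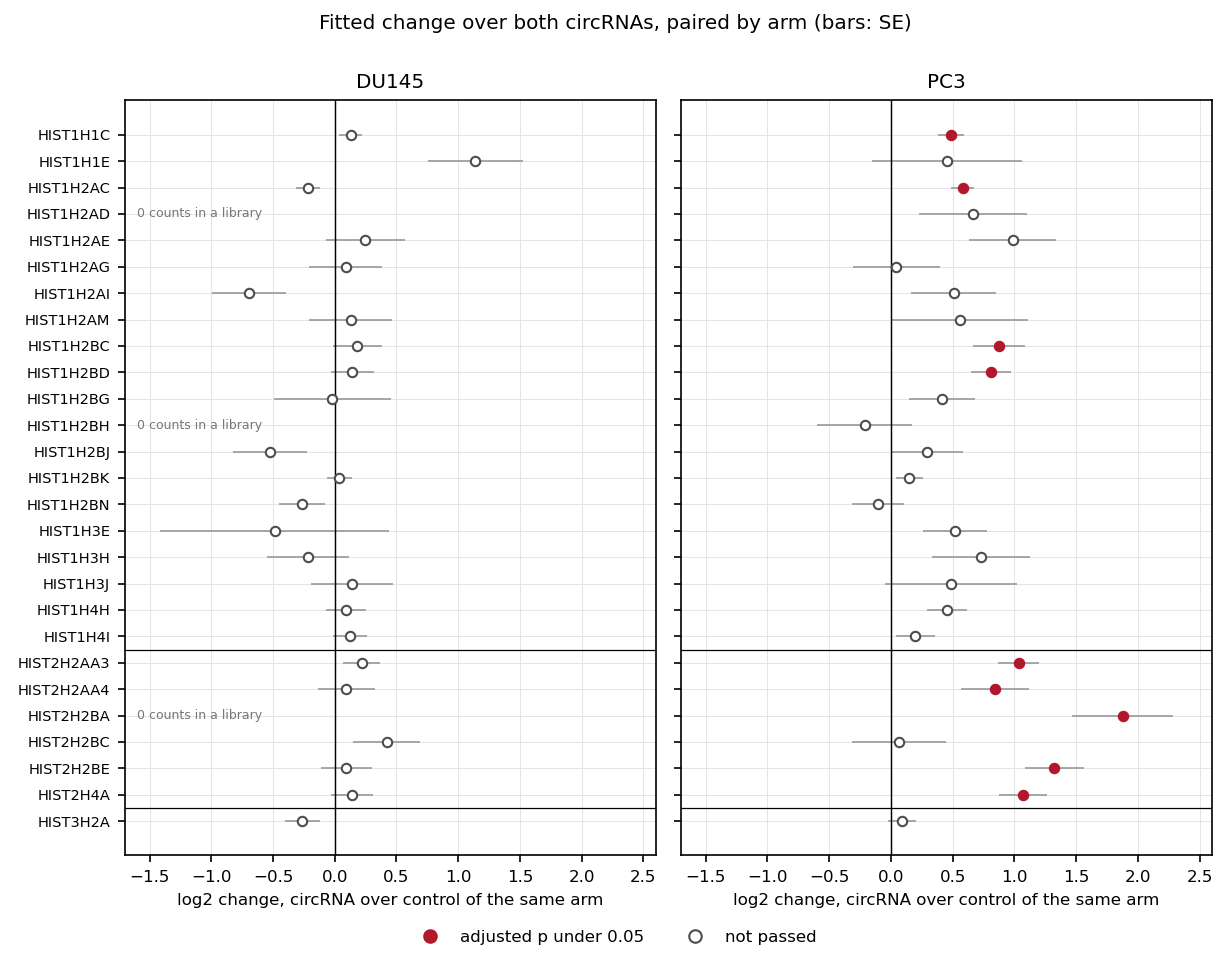
Fitted log2 change of each gene (x axis) over both circRNAs of a line, each library paired with the control of its arm; bars are SE, and filled points passed an adjusted p of 0.05. In PC3 9 points are filled, 1 of them HIST2H2BA, which passed the CPM minimum only through the PC3 circRNA libraries, and in DU145 none is; genes with 0 counts in a library of the line have no point.

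Each circRNA was also set against both controls of its line. In PC3, 10 genes rose with circ0003553, where 14.3% of all tested genes rose, 14.5% fell and 28.8% passed, and 9 rose with circ0004592, where 12.3% rose, 13.5% fell and 25.7% passed. None fell with either. Both counts include HIST2H2BA, and of the 24 genes that pass the CPM minimum without these libraries 9 and 8 rose. With circ0003553 these were, by size, HIST2H2BE (1.28), HIST1H2AE (1.14), HIST2H4A (1.10), HIST2H2AA3 (1.02), HIST1H2BD (0.90), HIST1H2BC (0.72), HIST1H2AC (0.60), HIST1H1C (0.47) and HIST1H4H (0.46), as log2 changes. With circ0004592 they were HIST2H2BE (1.35), HIST2H2AA4 (1.06), HIST2H2AA3 (1.05), HIST2H4A (1.02), HIST1H2BC (1.02), HIST1H2BD (0.72), HIST1H2AC (0.56) and HIST1H1C (0.50). The difference between the circRNAs was not tested, and both share the PC3 controls. DESeq2 called 6 and 5 of the 27, where it called 14.3% and 12.7% of all genes, and limma on RPKM 6 and 5, where it called 18.5% and 14.8%.

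In DU145 none of the 27 genes passed. The edgeR count was 0 with circ0003553, where 10.9% of all tested genes passed (4.62% higher, 6.27% lower). It was 0 with circ0004592, where 10.4% passed (5.93% higher, 4.51% lower), and 0 in the paired fit, where 0.75% passed (0.414% higher, 0.336% lower). At an unadjusted p under 0.05 there were 5, 5 and 4 of 27, beside 24.7%, 24.1% and 11.2% of all genes, so these counts are near or below the background. DESeq2 called 0 in each, beside 4.59%, 4.67% and 0.627% of all genes. With limma on RPKM, 0 of all genes passed in each, so its 0 for the histone genes carries no information. The medians of the log2 changes were 0.08, 0.07 and 0.09. HIST1H2AI, an H2A gene, had 1.76 and 1.94 CPM in the controls and 0.862 with circ0003553 (-1.10, adjusted p = 0.057), and HIST3H2A had 4.67 and 5.40 and then 3.67 (-0.45, adjusted p = 0.057). Both passed as lower with circ0003553 when either PC3 control was left out, which leaves DU145 values as they were. More of all tested genes passed in those fits too, and a larger share of them than of the histone genes. HIST1H1E had 20 and 22 counts in the DU145 controls and 54 and 38 with the circRNAs.

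The difference between the lines was tested in the paired fit. For 4 genes the change with the circRNAs was higher in PC3 than in DU145, where 5.95% of all tested genes were higher, 4.94% lower and 10.9% passed. They were HIST2H2BE (a log2 difference of 1.23 ± 0.31, edgeR adjusted p = 0.0153), HIST2H4A (0.93 ± 0.26, 0.0256), HIST2H2AA3 (0.82 ± 0.22, 0.0223) and HIST1H2AC (0.80 ± 0.14, 0.000512). No gene passed as lower. HIST1H2AC passed under each of the alternatives run; the others were lost under 5 to 7 of 13, and DESeq2 called HIST1H2AC alone, where it called 7.25% of all genes. Leaving out 1 library at a time, 2 to 8 genes passed: 2 without either DU145 library of the RCAN3 arm or either PC3 library of the STK3 arm, and 8 without the DU145 library with circ0004592. Fewer of all tested genes passed without a PC3 library than in the full fit, and more without a DU145 library. The fall without a DU145 library of the RCAN3 arm thus went against the change in all genes. The other PC3 risers missed the threshold for the difference: HIST1H1C, HIST1H2BC and HIST1H2BD had adjusted p of 0.118, 0.149 and 0.0841, and HIST2H2AA4 and HIST2H2BA 0.218 and 0.0558.

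Of 12 genes for replication-independent histone variants, 1 rose and 3 fell in the paired PC3 fit (median log2 change -0.16), beside 9.54% and 9.67% of all tested genes. H2AFV, an H2A.Z gene, had 165 and 145 CPM in the PC3 controls and 84.4 and 87.3 with the circRNAs (-0.85 ± 0.09, edgeR adjusted p = 1.89e-06). H2AFZ, also an H2A.Z gene, had 64.9 and 71.8 and then 53.3 and 52.9 CPM, and H3F3A, an H3.3 gene, 51.3 and 50.6 and then 38.9 and 41.4. All 3 fell in both arms. H1F0, the linker histone of resting cells, rose from 338 and 361 to 480 and 470 CPM (0.44 ± 0.09, adjusted p = 0.00203). In DU145 none of the 12 passed in the paired fit, where 0.75% of all genes passed, so this 0 is near the background.

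Of 20 genes that make, end and decay histone messages, 3 rose and none fell in the paired PC3 fit, beside 9.54% of all genes that rose: SYMPK (0.38) and CSTF2T (0.30), which belong to the 3′ end cleavage machinery, and CASP8AP2 (0.36), which works with NPAT at histone loci. SLBP had 55.6 and 51.5 CPM in the controls and 60.7 and 56.6 with the circRNAs (0.13, adjusted p = 0.342). NPAT, the coactivator of histone transcription, had 13.7 and 12.6 and then 13.6 and 12.5 CPM. Neither SLBP nor NPAT passed. Of 20 chaperone and deposition genes only HIRA, which deposits H3.3, rose (0.64 ± 0.10, adjusted p = 9.85e-05).

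Cell cycle genes are likewise given beside the 9.54% of all genes that rose and 9.67% that fell. Of 25 S phase genes 4 rose in the paired PC3 fit and none fell: MCM5 (0.42) and MCM3 (0.28) of the replicative helicase, GINS1 (0.38) and TYMS (0.37), with a list median of 0.04. Of 18 G2/M genes BUB1 (0.68) and KIF11 (0.35) rose and AURKB (-0.36) fell, with a median of 0.06. Of 11 tested arrest genes CDKN1A (0.67) and GADD45B (0.44) rose, while CDKN2B (-0.93) and GADD45A (-0.28) fell. In DU145, where 0.75% of all genes passed, GADD45B alone of these 3 lists did so (-0.48, adjusted p = 0.0200). Whether the share of cells in S phase differed between libraries cannot be read from bulk RNA, in which more cells with a message and more message per cell cannot be told apart.

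The interferon-stimulated genes also rose in PC3 with the circRNAs, by far more than the histone genes. All 10 on the list rose there in the paired fit, where 9.54% of all genes rose, with a median log2 change of 6.29. In DU145 3 of 10 rose, where 0.414% of all genes rose, with a median of 0.53. MX1, an antiviral GTPase, had 23.4 and 23.8 CPM in the PC3 controls and 2673 and 2549 with the circRNAs. In DU145 it had 34.8 and 33.5 and then 41.1 and 50.7 CPM. Whether this response bears on the histone changes was not tested.

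**Figure D4:**
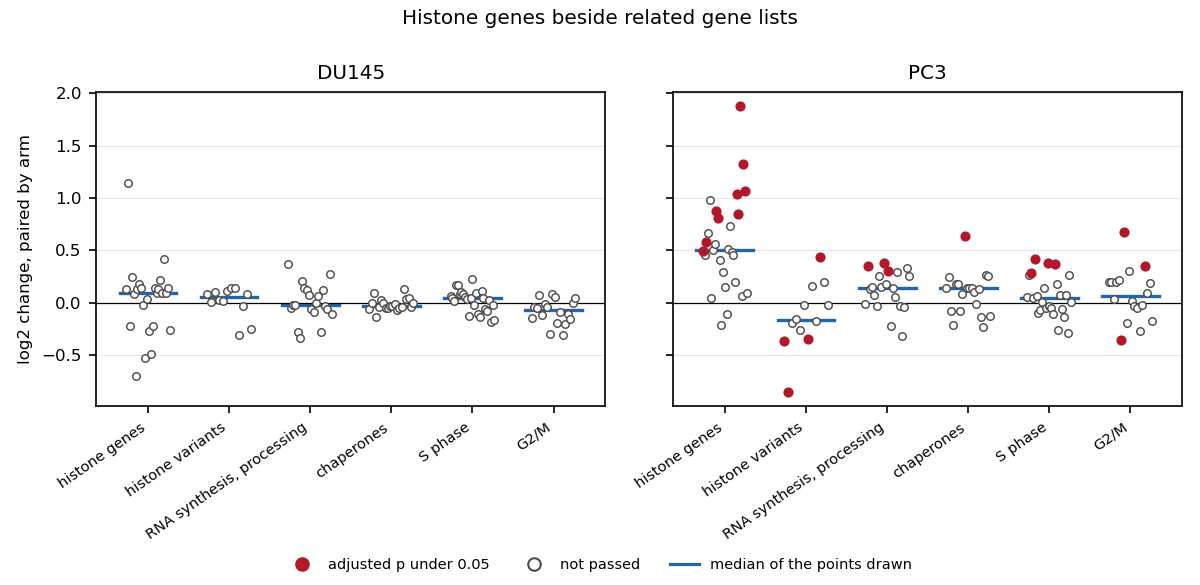
Log2 change in the paired fit (y axis) for the histone genes and the genes of 5 related lists, by line; filled points passed an adjusted p of 0.05 and lines are medians of the points drawn. In PC3 the clustered histone genes lie mostly above 0, with a median of 0.51, and the variants have a median of -0.16; genes with 0 counts in a library of the line are not drawn.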

How the data were processed

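Total RNA was depleted of ribosomal RNA and sequenced as stranded paired reads with molecular identifiers, per the labels. The authors trimmed reads with Trimmomatic 0.36 and counted them with featureCounts of Subread 1.5.1 on hg38, with edgeR 3.12.1 listed, per the submitters' processing notes. The aligner, annotation release, strand setting and use of the identifiers are not given in the sources used here. The deposited counts are raw counts per gene, and the deposited RPKM equal counts per length and library total.

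Genes with 1 CPM in 2 libraries were tested with edgeR 4.0.16 (TMM, quasi-likelihood) in R 4.3.3, with Benjamini-Hochberg adjustment over 17877 genes and a threshold of 0.05. SEs were worked back from F. CPM use TMM factors. Fits held 6 groups, or 4 blocks of line and arm with a term for overexpression in each line, both with 2 residual degrees of freedom; the spread of a circRNA with 1 library in a line was taken from the controls. The arms come from the titles. Control replicates 1 and 2 were numbered in accession order. Genes in 1 table only (5511, at most 14 counts) were given 0 in the other. Even numbers made up 64.9% to 66.1% of counts from 1 to 20, so 1 read pair was taken as 2 counts.

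Named were called members, up to 10 per direction and comparison, the 10 with the highest median RPKM, the 5 with known polyadenylated messages, up to 4 called genes per list, and RCAN3 and STK3. The members and lists were chosen with earlier results of these data known. Alternatives were DESeq2 1.42.0, its size factors, no filter, limma 3.58.1 on log2(RPKM + 0.1), no block, and each library left out. Fits were also run on simulated data with the same dispersion for every gene, in which only well-counted genes were changed. That run does not cover genes with few counts.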

Additional observations from a re-analysis of the deposited data

Results flagged for a closer look

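The changes with overexpression differed between the lines, by the test of the difference itself, for 4 of the 27 histone genes. As log2 differences (PC3 minus DU145) these were 1.23 for HIST2H2BE, 0.93 for HIST2H4A, 0.82 for HIST2H2AA3 and 0.80 for HIST1H2AC. HIST1H2AC rose in PC3, while its change in DU145 did not pass (-0.22, edgeR adjusted p = 0.405).

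Among the other genes named, the same test passed for the variants H2AFV (-0.85), H3F3A (-0.49), H2AFZ (-0.45) and H1F0 (0.47), and for the chaperone HIRA (0.69). It passed for the cell cycle genes BUB1 (0.72), TYMS (0.48), KIF11 (0.46), GADD45B (0.91) and CDKN2B (-0.53). GADD45B rose in PC3 and fell in DU145. The interferon-stimulated genes had the largest differences of those named: RSAD2 (7.55), IFIT1 (6.57), MX1 (6.37), OAS1 (6.15), IFIT2 (5.78), IFI44 (4.10) and ISG15 (3.86).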

How the results depend on the processing

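No called histone gene changed sign under any alternative run, the 24 called between the controls included. DESeq2 gave 6 in PC3 with circ0003553, 5 with circ0004592, 6 in the paired PC3 fit and 17 between the controls. It gave 1 for the difference between lines. Limma on RPKM gave 6, 5, 9 and 25 in the same order, and 4 for the difference. Of all genes, DESeq2 called 12.1% and limma 12.5% in the paired PC3 fit. Between the controls these shares were 71.1% and 80.4%, and for the difference 7.25% and 5.91%. In DU145 with circ0003553, 1 gene was lower with DESeq2 size factors (HIST3H2A) and 1 with no filter (HIST1H2AI). A fit on the 4 libraries of the line alone, chosen after seeing the data, called 2 lower there (HIST1H2AI and HIST1H2BN). Of all genes, 2029 passed with DESeq2 size factors and 1758 with no filter. In each of these fits, that of the line alone included, a larger share passed of all genes than of the histone genes. With DESeq2 size factors the median log2 change was 0.58 for PC3 and 0.0719 for DU145 with circ0003553.

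Leaving out 1 library at a time gave 8 to 10 calls in PC3 with each circRNA, 0 to 2 and 0 to 0 in DU145 with circ0003553 and circ0004592, 21 to 24 between the controls, 4 to 11 in the paired PC3 fit, 0 to 0 in that of DU145 and 2 to 8 for the difference. The difference fell to 2 without either DU145 library of the RCAN3 arm or either PC3 library of the STK3 arm, and reached 8 without the DU145 library with circ0004592. In such paired fits the remaining pair was assumed to vary like the other line. The number of all genes that passed moved as well in the paired PC3 fit and for the difference. It was lower without a PC3 library and higher without a DU145 library than in the full fit. In the paired PC3 fit the histone count moved the same way, so its range is not particular to the histone genes. For the difference it did not always do so. Without either DU145 library of the RCAN3 arm, fewer histone genes passed while more of all genes did.

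Without the replicate block, 11 genes were called in PC3, 0 in DU145 and 4 for the difference. In the same order 3693, 180 and 2165 of all genes passed, against 3434, 134 and 1948 of 17877 with the block. The rise from 9 to 11 in PC3 thus came with more calls among all genes. With so few of all genes passing in DU145, the 0 there is near the background. The arm differences of controls and circRNA libraries correlated across 7406 genes at r = 0.163 in PC3 and -0.187 in DU145, a hint on pairing from the data alone. Depth limits the genes with few counts, of which 8 had a lowest count under 10.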
